A study of Mus musculus with 4 samples.

Results

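The expression of 10 genes of the leukotriene and prostaglandin system was followed through single αLPs of WT and G3SEKO bone marrow: *Alox5*, *Alox5ap*, *Ltc4s*, *Cysltr1*, *Lpcat2*, *Hpgds*, *Tbxas1*, *Ptgir*, *Ptger4* and *Ptgdr2*. They are 10 of the 24641 genes counted in experiment 1 and the 24838 counted in experiment 2. All 10 had a row in experiment 2, and 9 had one in experiment 1, which lists no *Ltc4s*. They were chosen by name and because *Alox5*, *Ptgir* and *Lpcat2* were lower in G3SEKO cells with *Il1rl1* reads, so the difference between the genotypes in those cells is given as a description without a test.

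G3SEKO mice carry a CRISPR-Cas9 deletion of the tandem super-enhancers downstream of *Gata3*, and WT mice carry none. αLPs (Lin−CD127+FLT3−LPAM-1+ cells) of several mice per genotype were stained with hashtag antibodies, combined and sequenced by TAS-Seq in 2 experiments. The labels give the strain of experiment 1 as C57BL/6, give none for experiment 2 and give no ages. The methods give more mice per genotype than hashtags in each experiment, so mice shared hashtags, cells cannot be assigned to a mouse, and each genotype counted as 1 sample per experiment. In experiment 2 the labels list hashtags A0302 and A0303 under WT and none under G3SEKO. A0303 was taken as G3SEKO, an assignment on which all G3SEKO values of experiment 2 depend.

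Leukotrienes and prostaglandins are short-lived lipids made from arachidonic acid. The lipoxygenase encoded by *Alox5*, helped by the membrane protein encoded by *Alox5ap*, starts the leukotriene branch, and cyclooxygenases start the prostaglandin branch. ILC2s, the innate lymphocytes that make type 2 cytokines, are known to respond to cysteinyl leukotrienes and prostaglandin D2, which activate them, and to prostacyclin, which restrains them.

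*Alox5* lies on chromosome 6 (GRCm38, 116410077 to 116461178, minus strand), *Ptgir* on chromosome 7 (16906490 to 16910905, plus strand) and *Lpcat2* on chromosome 8 (92855339 to 92919279, plus strand). No other annotated gene overlaps *Alox5* or *Ptgir*, whereas *Lpcat2* spans *Capns2* on its own strand. The reads of such overlapping genes can be split or shared by the counting, and whether it used strand is not given in the sources used here. The 250 bases before the RefSeq start of these 3 genes (GRCm38.p6) are shown because the genes were chosen for moving together when *Gata3* enhancers were deleted. Capitals mark the letters AGATAA, the form AGATAG, the form TGATAA or the form TGATAG on either strand, a core that GATA factors bind, and overlapping matches were counted.
*Alox5*, chr6:116461179-116461428, minus strand: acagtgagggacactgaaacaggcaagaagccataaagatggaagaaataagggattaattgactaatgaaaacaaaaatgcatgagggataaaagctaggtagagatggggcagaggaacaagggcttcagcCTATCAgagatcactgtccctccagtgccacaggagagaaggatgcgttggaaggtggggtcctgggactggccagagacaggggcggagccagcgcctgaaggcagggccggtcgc
*Ptgir*, chr7:16906240-16906489, plus strand: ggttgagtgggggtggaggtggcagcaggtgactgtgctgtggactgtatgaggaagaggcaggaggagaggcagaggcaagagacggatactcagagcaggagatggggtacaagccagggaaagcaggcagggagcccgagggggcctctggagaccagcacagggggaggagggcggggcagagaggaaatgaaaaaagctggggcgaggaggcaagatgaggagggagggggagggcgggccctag
*Lpcat2*, chr8:92855083-92855332, plus strand: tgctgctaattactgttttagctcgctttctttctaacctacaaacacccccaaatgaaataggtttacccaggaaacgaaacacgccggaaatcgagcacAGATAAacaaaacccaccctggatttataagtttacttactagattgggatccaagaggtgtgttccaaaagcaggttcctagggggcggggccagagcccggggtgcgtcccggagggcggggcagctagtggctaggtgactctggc
One match begins 117 bases before the *Alox5* start and 1 begins 149 bases before the *Lpcat2* start, and these letters are not in the *Ptgir* window. Of all 32851 windows in the table, 26.5% hold a match. A window was found for 8 of the 10 genes, and 2 of the 8 hold a match.

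Cells were divided by reads of 3 genes, and a cell passed for a gene where the natural logarithm of 1 plus its reads per 10000 reached 1. ST2+ cells passed for *Il1rl1*, which encodes ST2. Zbtb16+ cells, the gate that holds ILC progenitors, passed for *Zbtb16* and not for *Il1rl1*. Of them 34 of 98 (experiment 1) and 102 of 230 (experiment 2) in WT also passed for *Icos*. In G3SEKO 9 of 20 and 162 of 375 did. The paper counts cells with *Zbtb16* and high ICOS as early ILC2-committed precursors, so the gate mixes these with progenitors. Icos+ cells passed for *Icos* alone, and triple-negative cells for none of the 3. Experiment 1 held 98 Zbtb16+, 84 Icos+ and 424 ST2+ WT cells against 20, 7 and 2 G3SEKO cells. Experiment 2 held 230, 574 and 3548 WT cells against 375, 345 and 50 G3SEKO cells. For every gate, genotype and experiment the reads of all cells were added up and are given per 1000000 reads of the sum (CPM), so that fewer cells with a transcript and fewer transcripts per cell cannot be told apart in a sum. Median depth was 396198 reads in WT and 509911 in G3SEKO cells of experiment 1, against 29677 and 42814 in experiment 2. Around the *Il1rl1* limit in experiment 2, 158 cells lay within 0.25 below it and 199 within 0.25 above it, of 3598 above it in all.

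The gates were checked against markers. *Gata3*, whose enhancers are deleted, had 829 and 761 CPM in WT Zbtb16+ cells (experiments 1 and 2, in this order throughout) and 881 and 494 CPM in G3SEKO Zbtb16+ cells. In Icos+ cells it had 1161 and 994 CPM in WT and 507 and 438 CPM in G3SEKO. In ST2+ cells it had 1387 and 1039 CPM in WT, and 294 CPM in the 50 G3SEKO cells of experiment 2. The G3SEKO value was thus lower in both experiments in the Icos+ gate but not in the Zbtb16+ gate. A list of 5 ILC progenitor markers summed to 151 CPM in WT ST2+ cells of experiment 2 and to 1687 CPM in G3SEKO ST2+ cells. In the same cells NK cell and ILC1 markers summed to 2.40 CPM in WT and 43.3 CPM in G3SEKO. *Ccr6*, *Cxcr5* and *Il23r*, genes of lymphoid tissue inducer cells and ILC3 that were chosen after their values were seen, summed there to 1.02 CPM in WT and 154 CPM in G3SEKO. In Zbtb16+ cells these 3 genes summed to 232 and 240 CPM in WT and to 130 and 205 CPM in G3SEKO. Their sum was thus lower in G3SEKO there in both experiments, and it alone does not name a cell type. The part of cells with such markers in the ST2+ values below was not tested. In the Zbtb16+, Icos+ and ST2+ sums of at least 5 cells, mast cell and basophil markers summed to between 53.1 and 190 CPM, nearly all of it *Cpa3*. Of that list 4 of 8 genes had a row in experiment 1 and 1 in experiment 2. In experiment 2 the list had 59.3 CPM in WT and 190 CPM in G3SEKO ST2+ cells, and 65.7 and 160 CPM in Icos+ cells. It had 61.5 CPM in WT and 53.1 CPM in G3SEKO Zbtb16+ cells of experiment 2, and 131 and 136 CPM in Icos+ cells of experiment 1. The part of these markers in the genotype differences below was not tested. Monocyte, macrophage and neutrophil markers summed to between 0.78 and 23.8 CPM (10 and 9 of 10 genes had a row).

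In WT cells most of these genes had higher sums at the later gates. *Lpcat2*, *Hpgds* and *Ptger4* were the ones that rose from Zbtb16+ to ST2+ cells by the test across all genes. *Cysltr1*, *Ptgir* and *Alox5* were higher in ST2+ than in Zbtb16+ cells in both experiments, with adjusted p-values above the threshold of 0.05. *Alox5ap* and *Tbxas1* had lower sums in ST2+ than in Zbtb16+ cells. The WT ST2+ sums also belong to the contrast by which the genes were chosen.

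*Lpcat2* encodes an acyltransferase that makes platelet-activating factor. It had 4.17 and 22.6 CPM in Zbtb16+, 40.5 and 116 CPM in Icos+ and 177 and 214 CPM in ST2+ WT cells. The ST2+ values lay above every value of the other 2 gates, and the increase from Zbtb16+ to ST2+ cells was 4.41 on the log2 scale (SE 0.58, edgeR adjusted p = 0.0395). *Hpgds* encodes the prostaglandin D2 synthase of blood cells. It had 1.14 and 3.70 CPM in Zbtb16+, 20.7 and 27.5 CPM in Icos+ and 55.9 and 47.0 CPM in ST2+ cells, an increase of 4.70 from the first to the last (SE 0.59, edgeR adjusted p = 0.0374). *Ptger4* encodes a receptor of prostaglandin E2. It had 12.1 and 19.7 CPM in Zbtb16+, 47.7 and 70.8 CPM in Icos+ and 71.4 and 72.8 CPM in ST2+ cells, an increase of 2.29 (SE 0.25, edgeR adjusted p = 0.032). In experiment 2 its Icos+ and ST2+ values were close to each other. Of 20086 genes tested between ST2+ and Zbtb16+ cells, 204 were called higher (1.02%) and 250 lower (1.24%), beside 3 and 0 of the 9 members tested. The median of the 9 was 2.58 on the log2 scale and that of all genes 0.06. Without the experiment as a replicate block the edgeR adjusted p of *Lpcat2* was 0.105, and the edgeR values of *Lpcat2* and *Hpgds* were 0.0743 and 0.057 when Icos+ cells were replaced by their Il18r1+ part in the fit. DESeq2 called 6.93% of genes higher and 8.2% lower in this contrast, and edgeR on cells thinned to 6000 reads 4.63% and 4.19%. Both called *Lpcat2*, *Hpgds*, *Ptgir*, *Cysltr1* and *Alox5* higher, and DESeq2 also called *Ptger4* higher and *Alox5ap* lower, whereas the edgeR adjusted p of *Ptger4* on thinned cells was 0.0988. With gates at 0.5 the edgeR adjusted p-values of *Hpgds* and *Ptger4* were 0.0764 and 0.0604, and with gates at 1.5 that of *Ptger4* was 0.0683.

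*Ptgir*, the prostacyclin receptor gene, had 2.41 and 15.6 CPM in Zbtb16+, 59.0 and 107 CPM in Icos+ and 128 and 146 CPM in ST2+ WT cells. Its ST2+ values exceeded those of both other gates, with a difference from Zbtb16+ cells of 4.47 (SE 0.68, edgeR adjusted p = 0.0524). *Cysltr1*, the receptor gene for cysteinyl leukotrienes, had 2.91 and 52.8 CPM in Zbtb16+, 126 and 237 CPM in Icos+ and 332 and 363 CPM in ST2+ cells. Every ST2+ value was above every Icos+ value and these were above every Zbtb16+ value, but the Zbtb16+ values of the 2 experiments lay far apart, and the difference of 4.54 had an SE of 1.12 (edgeR adjusted p = 0.136). *Alox5* had 23.4 and 92.5 CPM in Zbtb16+, 18.8 and 124 CPM in Icos+ and 109 and 266 CPM in ST2+ cells. Its Icos+ values overlapped those of both other gates across experiments, whereas both ST2+ values lay above both Zbtb16+ values. Within each experiment ST2+ was highest, by 1.97 over Zbtb16+ cells (SE 0.36, edgeR adjusted p = 0.0784). Between the other pairs of gates edgeR called no member, among 0 genes of 20086 from Zbtb16+ to Icos+ (0.0% in either direction) and 1 higher and 2 lower from Icos+ to ST2+ (0.00498% and 0.00996%). An unadjusted p under 0.05 was reached by 2950 and 1793 genes in these 2 contrasts, and DESeq2 called 2119 and 835. From Zbtb16+ to Icos+ cells DESeq2 called 6.66% of genes higher and 5.62% lower, with *Cysltr1*, *Hpgds*, *Lpcat2*, *Ptgdr2*, *Ptger4* and *Ptgir* among the higher. In the same step edgeR on thinned cells called 2.85% higher and 2.05% lower, with *Alox5*, *Cysltr1*, *Hpgds*, *Lpcat2* and *Ptgir* among the higher. From Icos+ to ST2+ cells DESeq2 called 0.992% higher and 3.85% lower, with *Alox5* and *Lpcat2* among the higher and *Alox5ap* and *Ptgdr2* among the lower.

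**Figure D1:**
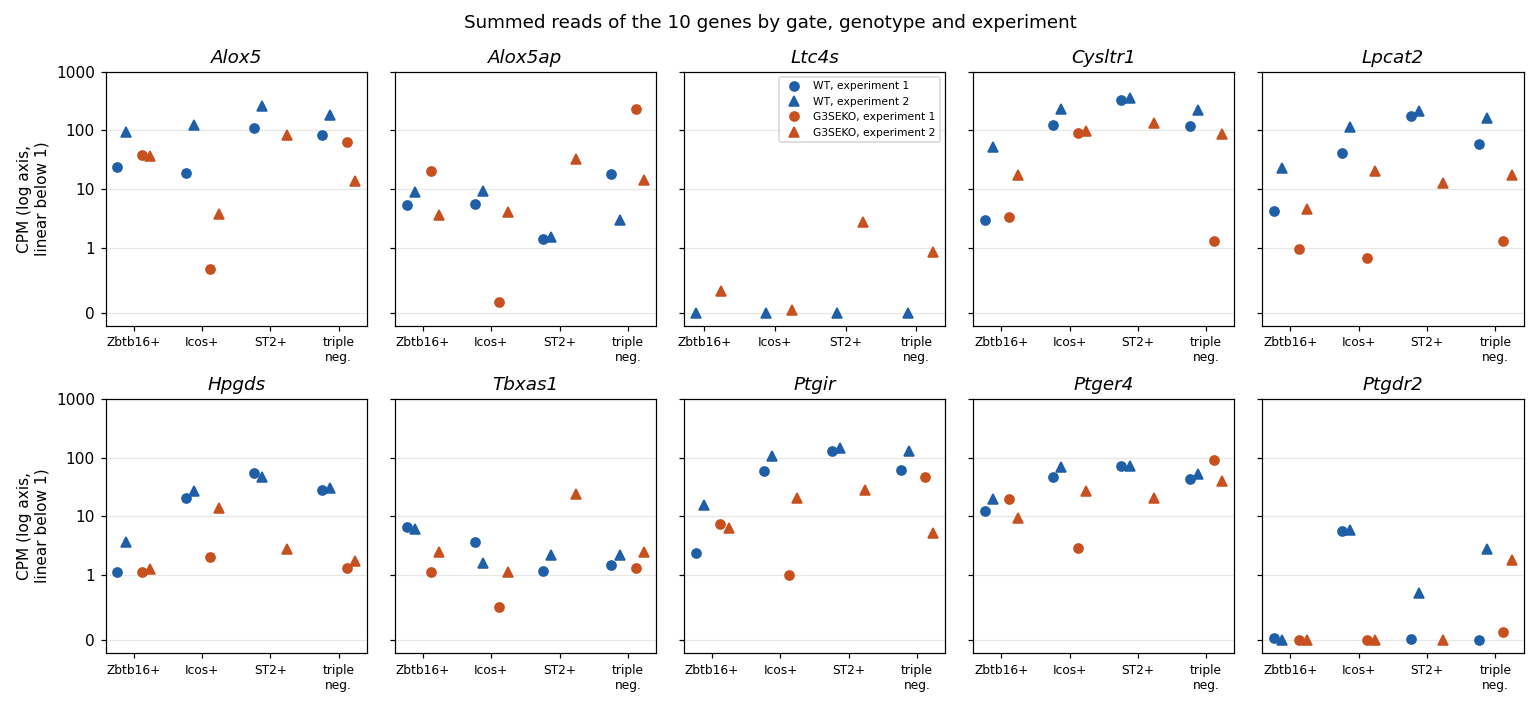
CPM (log axis, linear below 1) of the 10 genes in the 4 gates, with WT in blue, G3SEKO in orange, experiment 1 as circles and experiment 2 as triangles. Each point is 1 sum of at least 5 cells, so G3SEKO ST2+ cells of experiment 1 are not drawn, and *Ltc4s* has values in experiment 2 alone. The WT points of *Lpcat2* lie at 4.17 and 22.6 CPM in Zbtb16+ cells and at 177 and 214 CPM in ST2+ cells.

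In experiment 1, where the labels give WT 3 hashtags, the ST2+ values of the 3 lay between 102 and 115 CPM for *Alox5*, 153 and 213 for *Lpcat2*, 120 and 135 for *Ptgir*, 312.2 and 363 for *Cysltr1*, 48.0 and 68.5 for *Hpgds* and 55.4 and 101 for *Ptger4*. All of these were above the highest Zbtb16+ hashtag value of the same gene, which was 37.2 CPM for *Alox5*, 11.4 for *Lpcat2*, 4.88 for *Ptgir*, 3.83 for *Cysltr1*, 1.87 for *Hpgds* and 33.2 for *Ptger4*. The Icos+ values spread more widely, from 0.413 to 39.3 CPM for *Alox5* and from 4.19 to 69.2 CPM for *Lpcat2*.

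The Icos+ gate held cells with and without *Il18r1*, the IL-18 receptor gene, and *Alox5* differed between them. WT Icos+ cells with *Il18r1* (47 and 126 cells) had 4.87 and 6.17 CPM of *Alox5*, below all Zbtb16+ and ST2+ sums of WT cells, whereas those without it (37 and 448 cells) had 50.8 and 187 CPM. The Zbtb16+ sums before and the ST2+ sums after lay above the Il18r1+ part in both experiments. In a fit added after the data were seen, *Alox5* was lower in Icos+ Il18r1+ than in Zbtb16+ cells by -3.02 on the log2 scale (SE 0.43, edgeR adjusted p = 0.164) and higher in ST2+ than in Icos+ Il18r1+ cells by 4.92 (SE 0.46, edgeR adjusted p = 0.0637), so neither step passed the threshold. *Cysltr1* did not have this low point, with 115 and 170 CPM in Icos+ Il18r1+ cells. *Ptgir* had 14.4 and 27.9 CPM and *Lpcat2* 25.1 and 24.7 CPM there, between their Zbtb16+ and ST2+ values. *Il1rl1* itself had 10.5 and 34.2 CPM in the Il18r1+ part and 48.0 and 44.6 CPM in the Il18r1- part, below the limit in each cell, and the part of cells whose *Il1rl1* reads were missed in these values was not tested.

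**Figure D2:**
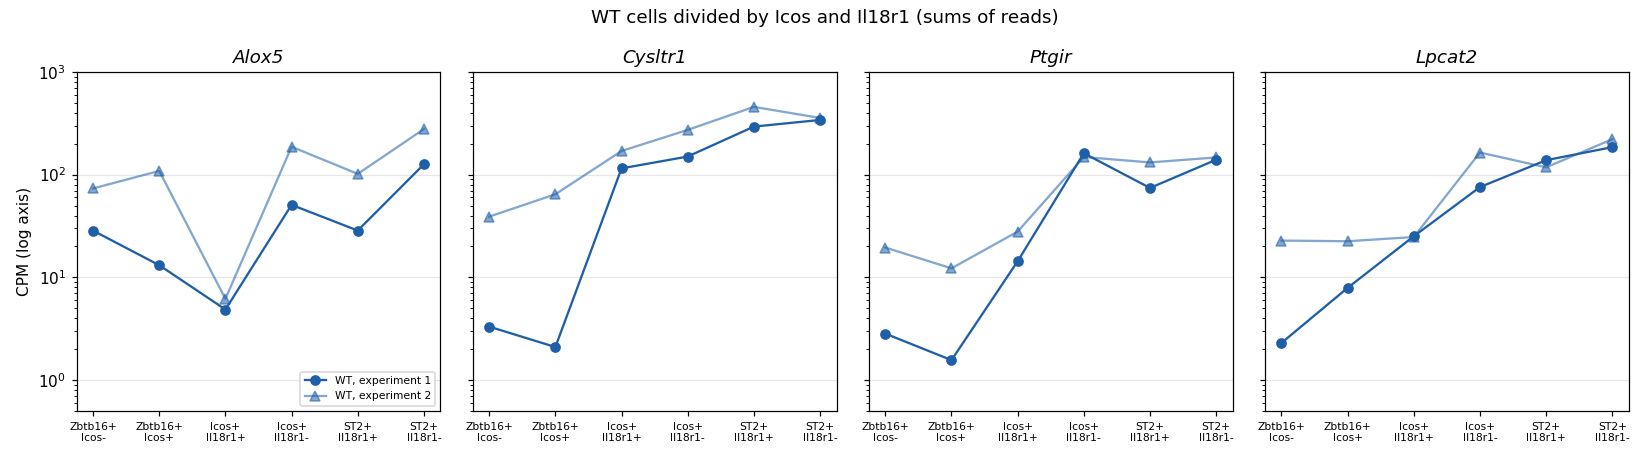
CPM (log axis) of 4 genes in WT cells divided by *Icos* and *Il18r1*, with circles for experiment 1 and triangles for experiment 2 and lines that join the divisions of 1 experiment. *Alox5* falls to 4.87 and 6.17 CPM in Icos+ Il18r1+ cells, a low point that *Cysltr1*, *Ptgir* and *Lpcat2* do not have.

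Among WT ST2+ cells, *Alox5* again had the lower values where *Il18r1* was read. It had 28.5 and 102 CPM in the 58 and 190 Il18r1+ cells and 126 and 277 CPM in the 366 and 3358 Il18r1- cells. The difference was -1.80 (SE 0.23, lower in 2 of 2 experiments), with an edgeR adjusted p of 0.639 and a DESeq2 adjusted p of 4.18e-07. edgeR called 0 of 19750 genes in this comparison (0.0% in either direction), 1362 genes had an unadjusted p under 0.05, and DESeq2 called 329 (0.795% higher and 1.22% lower). *Ptgir* had 74.2 and 131 CPM in Il18r1+ and 140 and 147 CPM in Il18r1- cells, and *Lpcat2* 138 and 118 CPM against 185 and 221 CPM. *Cysltr1* had 293 and 456 CPM against 340 and 356 CPM, which go in opposite directions in the 2 experiments.

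The remaining 4 genes gave few reads in the WT gates. *Alox5ap* had 5.28 and 8.98 CPM in Zbtb16+, 5.50 and 9.11 CPM in Icos+ and 1.40 and 1.54 CPM in ST2+ WT cells, and 1 cell gave 50.6% of its ST2+ reads in experiment 1. Its difference between ST2+ and Zbtb16+ cells was -2.16 (SE 0.54, edgeR adjusted p = 0.138). *Tbxas1*, the thromboxane synthase gene, had 6.61 and 6.10 CPM in Zbtb16+ and 1.16 and 2.21 CPM in ST2+ cells, and 1 cell gave 61.0% and 53.9% of the Zbtb16+ reads. *Ltc4s*, whose enzyme makes the first cysteinyl leukotriene, had 0 reads in the WT Zbtb16+, Icos+ and ST2+ cells of experiment 2, where 3 reads would be 0.0202 CPM in ST2+ cells. *Ptgdr2*, which encodes the prostaglandin D2 receptor CRTH2, was read in 2 WT Icos+ cells of experiment 1 (5.65 CPM) and 8 of experiment 2 (5.86 CPM), and had 0.0157 and 0.715 CPM in ST2+ cells. Both Icos+ sums of *Ptgdr2* therefore rest on a handful of cells, and the 7 and 345 G3SEKO Icos+ cells had 0 reads, where 3 reads would be 0.5002 and 0.142 CPM.

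In Zbtb16+ cells the genotypes did not differ in a way that both experiments shared for *Alox5*, *Cysltr1*, *Ptgir*, *Ptger4* and *Alox5ap*. *Alox5* had 23.4 and 92.5 CPM in WT and 37.5 and 36.3 CPM in G3SEKO cells, higher in experiment 1 and lower in experiment 2 (-0.29, SE 0.67, edgeR adjusted p = 0.9999). *Ptgir* had 2.41 and 15.6 CPM in WT and 7.34 and 6.24 CPM in G3SEKO cells, again with opposite directions. *Lpcat2* was lower in G3SEKO cells in both experiments, with 4.17 and 22.6 CPM in WT against 0.983 and 4.62 CPM (-2.15, SE 0.89, edgeR adjusted p = 0.9999). The log2 ratios of *Tbxas1* were -2.52 and -1.29, and those of *Hpgds* -0.03 and -1.47. *Lpcat2* was the member lower by 2-fold or more in both experiments among 6 with at least 10 CPM in a sum, beside 1.73% of all such genes, and 0 were higher (1.71%). Of the 10 genes 8 were tested, and 0 of 16604 genes were called (0.0% in either direction), with 294 at an unadjusted p under 0.05 and 48 called by DESeq2. One cell gave 67.5% of the G3SEKO *Alox5* reads in experiment 1.

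In Icos+ cells all 9 members tested had lower sums in G3SEKO than in WT cells in both experiments, as had 31.5% of all genes tested there, and 0 passed the edgeR test. The median log2 ratio of all genes was -0.53 in experiment 1, where the G3SEKO sum holds 7 cells, and 0.01 in experiment 2. *Ptgdr2* had 0 reads in G3SEKO cells of both experiments, and in the 7 cells *Alox5ap* had 1 read and *Tbxas1* 3 reads. *Alox5* had 18.8 and 124 CPM in WT and 0.667 and 3.82 CPM in G3SEKO cells. Both G3SEKO values lay below both WT values, and the difference was -4.89 (SE 1.05, edgeR adjusted p = 0.9997), with a DESeq2 adjusted p of 0.00823 and an edgeR adjusted p of 5.92e-04 on cells thinned to 6000 reads. *Lpcat2* had 40.5 and 116 CPM in WT and 0.834 and 20.5 CPM in G3SEKO cells (-3.88, SE 1.16, edgeR adjusted p = 0.9997, with 0.0217 for edgeR on thinned cells and 0.0986 for DESeq2). *Ptgir* had 59.0 and 107 CPM in WT and 1.0 and 20.1 CPM in G3SEKO cells (-3.98, SE 1.21, edgeR adjusted p = 0.9997, with 0.126 on thinned cells and 0.0902 for DESeq2). *Ptger4* had 47.7 and 70.8 CPM against 2.83 and 27.4 CPM, and *Hpgds* 20.7 and 27.5 CPM against 2.0 and 13.6 CPM. *Cysltr1* had 126 and 237 CPM in WT and 89.7 and 97.2 CPM in G3SEKO cells (-0.84, SE 0.43, edgeR adjusted p = 0.9997). Of 16571 genes 0 were called (0.0% in either direction), 327 had an unadjusted p under 0.05, and DESeq2 called 33 higher (0.236%) and 24 lower (0.172%), with *Alox5* and *Ptgdr2* among the lower. On thinned cells 15 genes were called higher (0.147%) and 41 lower (0.401%), *Alox5* and *Lpcat2* among the latter. Of 6 members with at least 10 CPM in a sum, 5 were lower by 2-fold or more in both experiments, beside 3.25% of all such genes, and 0 were higher (2.09%). The median of the 9 members tested was -2.80 and that of all genes -0.24.

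The Icos+ gate held different cells in the genotypes. Il18r1+ cells were 47 of 84 and 126 of 574 in WT and 7 of 7 and 283 of 345 in G3SEKO, and *Il1rl1* had 21.9 and 41.0 CPM in WT against 4.50 and 9.53 CPM in G3SEKO cells. ILC progenitor markers summed to 813 and 371 CPM in WT and to 851.9 and 1283 CPM in G3SEKO Icos+ cells, and NK cell and ILC1 markers (5 genes) to 170 and 15.2 CPM against 31.7 and 172 CPM, the latter in opposite directions in the experiments. *Ccr6*, *Cxcr5* and *Il23r* summed to 27.2 and 22.0 CPM in WT and to 379.8 and 174 CPM in G3SEKO Icos+ cells, higher in G3SEKO in both experiments. In the Il18r1+ cells of the gate they summed to 33.7 and 47.0 CPM against 379.8 and 101 CPM, and in the Il18r1- cells of experiment 2 to 8.74 against 646 CPM. The part of these cells in the genotype differences was not tested beyond the *Il18r1* division. Within the Il18r1+ part *Alox5* had 4.87 and 6.17 CPM in WT and 0.667 and 2.78 CPM in G3SEKO cells, a difference of -1.87 (SE 1.67, edgeR adjusted p = 0.9999). *Lpcat2* there had 25.1 and 24.7 CPM in WT against 0.834 and 18.2 CPM, *Ptgir* 14.4 and 27.9 CPM against 1.0 and 15.9 CPM, and *Cysltr1* 115 and 170 CPM against 89.7 and 101 CPM. The G3SEKO values stayed lower in both experiments, and for *Lpcat2* and *Ptgir* the 283 cells of experiment 2 lay nearer to WT than the 7 cells of experiment 1. In the Il18r1- part of experiment 2, 448 WT cells had 187 CPM of *Alox5* and 62 G3SEKO cells 10.5 CPM. The genotype difference of *Alox5* in Icos+ cells minus that in Zbtb16+ cells was -4.60 (SE 1.10, edgeR adjusted p = 1, a test added after the data were seen), and 0 of 18237 genes were called, with 278 at an unadjusted p under 0.05. With the Il18r1+ part in place of all Icos+ cells it was -1.55 (SE 1.37), a fit also added after the data were seen.

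**Figure D3:**
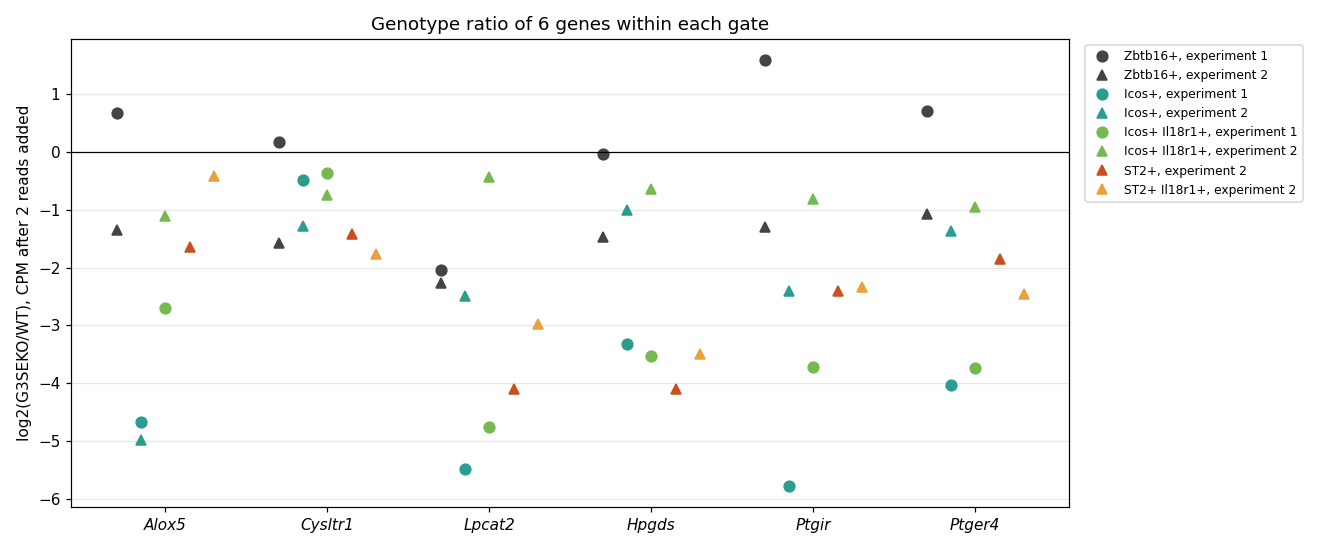
Log2 ratio of G3SEKO to WT CPM, after 2 reads were added to each sum, for 6 genes in 5 gates, with circles for experiment 1 and triangles for experiment 2. The *Alox5* ratios are -4.67 and -4.99 in all Icos+ cells and -2.69 and -1.11 in Icos+ Il18r1+ cells, and the Zbtb16+ points (dark grey) of *Alox5*, *Cysltr1*, *Ptgir* and *Ptger4* lie on both sides of 0.

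The values in ST2+ cells are those by which the genes were chosen. In experiment 2 the 50 G3SEKO ST2+ cells had 84.6 CPM of *Alox5*, against 266 CPM in the 3548 WT cells. *Ptgir* had 27.7 against 146 CPM, *Lpcat2* 12.5 against 214 CPM, *Cysltr1* 136 against 363 CPM, *Hpgds* 2.73 against 47.0 CPM and *Ptger4* 20.3 against 72.8 CPM. The log2 ratios ran from -1.41 for *Cysltr1* to -4.10 for *Lpcat2*. Of the 8 members with at least 10 CPM in 1 of the 2 sums, these 6 were lower by 2-fold or more, beside 1735 of 10220 genes (17.0%), and 2 were higher, beside 1642 genes (16.1%). The 2 were *Alox5ap* (33.1 against 1.54 CPM) and *Tbxas1* (24.2 against 2.21 CPM), each read in 2 of the 50 G3SEKO cells, with 56.5% and 98.4% of the reads from 1 cell. *Ltc4s* had 7 reads in ST2+ cells, all in 1 G3SEKO cell, and 1 triple-negative G3SEKO cell of experiment 2 passed the gate value for *Ltc4s*. When genotypes were taken from the hashtag counts by a 2-fold rule, the G3SEKO ST2+ gate held 88 cells in place of 50, and 4 members in place of 6 were lower by 2-fold or more. Under this rule 0 of the cells with a genotype changed it. The added cells were therefore barcodes deposited as doublets, which the values above leave out. The log2 ratios were then -1.61 for *Alox5*, -2.93 for *Ptgir*, -2.25 for *Lpcat2*, -1.12 for *Hpgds*, -0.90 for *Cysltr1* and -0.091 for *Ptger4*. The 2 G3SEKO ST2+ cells of experiment 1 had 3 reads of *Alox5* and 1 each of *Ptgir*, *Lpcat2* and *Hpgds*, where 3 reads are 2.22 CPM.

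G3SEKO ST2+ cells of experiment 2 were mostly Il18r1+, 37 of 50, whereas 190 of 3548 WT cells were. Among Il18r1+ ST2+ cells *Alox5* had 75.8 CPM in G3SEKO and 102 CPM in WT cells, a log2 ratio of -0.42 in place of -1.65 over all ST2+ cells. *Lpcat2* had 14.7 against 118 CPM, *Ptgir* 25.7 against 131 CPM, *Cysltr1* 133 against 456 CPM, *Hpgds* 2.30 against 29.2 CPM and *Ptger4* 19.3 against 107 CPM in the same cells. The 165 *Alox5* reads of the 37 G3SEKO cells came from 5 cells, and 1 of them gave 56.4%. In all 50 G3SEKO ST2+ cells they came from 6 cells, and 1 gave 42.9%. The Il18r1+ cells still differed in other markers. ILC progenitor markers summed to 223 CPM in WT and 1451 CPM in G3SEKO, NK cell and ILC1 markers to 5.35 against 51.0 CPM, and *Ccr6*, *Cxcr5* and *Il23r* to 1.51 against 164 CPM, and their part in these values was not tested.

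Shares of cells with a read were compared after each cell was thinned to 6000 reads, since the share of cells with a read depends on the depth. In WT Zbtb16+ cells of experiment 1, for example, 65.3% of cells had a read of *Cysltr1* as deposited and 1.02% after thinning. Thinned, *Alox5* was read in 20.0% and 29.4% of WT ST2+ cells and in 8% of the G3SEKO ST2+ cells of experiment 2 (exact 95% binomial interval 2.22% to 19.2%, for counting error only). *Lpcat2* was read in 34.2% and 31.6% of WT against 2% of G3SEKO ST2+ cells (0.0506% to 10.6%), *Ptgir* in 26.7% and 22.0% against 10% (3.33% to 21.8%) and *Cysltr1* in 46.2% and 43.3% against 18% (8.58% to 31.4%). Beside these, WT cells of experiment 2 with *Ccr6* (38 cells) had a share of 2.63% for *Alox5*, 2.63% for *Ptgir*, 7.89% for *Lpcat2* and 23.7% for *Cysltr1*. WT cells with *Eomes* or *Klrd1* (31 cells) had 6.45%, 3.23%, 0% and 3.23%, where 0 of 31 allows up to 11.2% by the exact interval. The G3SEKO ST2+ intervals of all 4 genes overlapped those of both gates. This overlap is no test, since the intervals run over cells of experiment 2 and the ST2+ values chose the genes. Whether these gates express the genes was not tested. Median depths of these gates were 31160 reads in WT ST2+, 42235 in G3SEKO ST2+, 32320 in WT Ccr6+ and 48271 in WT Eomes+ or Klrd1+ cells.

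**Figure D4:**
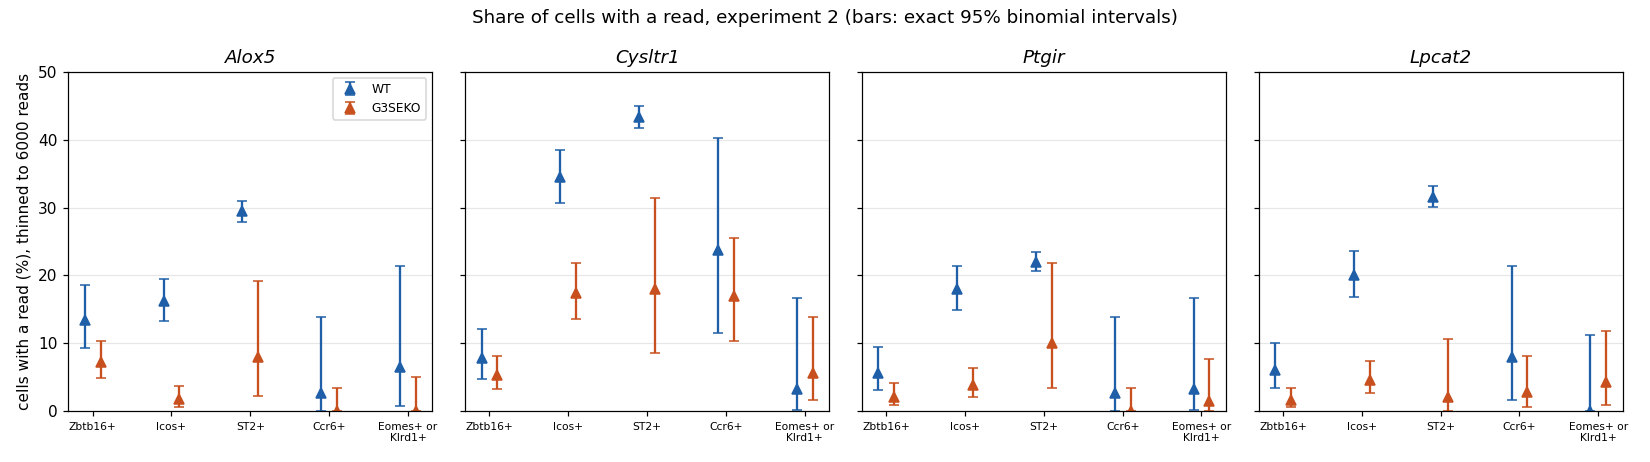
Percentage of cells of experiment 2 with a read of 4 genes after thinning to 6000 reads per cell, in 5 gates, for WT (blue) and G3SEKO (orange). Bars are exact 95% binomial intervals over cells, which cover counting error only, and the ST2+ shares of *Lpcat2* are 31.6% in WT and 2% in G3SEKO.

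Of 59 other genes of these pathways, 45 had a row in both experiments. Between WT ST2+ and Zbtb16+ cells 42 of them were tested, and 1 rose and 0 fell, with a median of -0.08 on the log2 scale. The 1 was *Lpcat1*, an acyltransferase of the same family as *Lpcat2*, with 6.87 and 6.44 CPM in Zbtb16+, 32.2 and 43.2 CPM in Icos+ and 34.3 and 45.9 CPM in ST2+ cells (2.62, SE 0.31, edgeR adjusted p = 0.0347). None of the list was called in the other WT contrasts, in the *Il18r1* comparison (42 tested) or between genotypes in Zbtb16+ (38 tested) or Icos+ cells (37 tested). In ST2+ cells of experiment 2, 26 of the list had at least 10 CPM, of which 5 were lower by 2-fold or more in G3SEKO cells and 5 higher, beside the shares of all genes given above. The lower ones were *Pafah2*, *Tbxa2r*, *Ptger2*, *Ltb4r1* and *Ggt5*, and the higher ones *Pla2g4a*, *Abcc4*, *Cotl1*, *Mgst2* and *Mgst3*. *Ltb4r1*, the receptor gene for leukotriene B4, had 1.53 and 30.0 CPM in Zbtb16+, 65.8 and 123 CPM in Icos+ and 208 and 217 CPM in ST2+ WT cells, and 69.0 CPM in G3SEKO ST2+ cells of experiment 2. *Pla2g4a*, which encodes the phospholipase that frees arachidonic acid, had 13.9 and 14.4 CPM in WT Zbtb16+ and 0.86 and 2.06 CPM in WT ST2+ cells, and 39.4 CPM in G3SEKO ST2+ cells. Across all these comparisons 14 genes of the list were called or differed by 2-fold or more in both experiments, and the 10 with the largest differences were *Ptger3*, *Prxl2b*, *Ltb4r1*, *Ltb4r2*, *Pla2g4a*, *Lpcat1*, *Mgst3*, *Ptgr1*, *Ptafr* and *Pafah2*. Between genotypes, *Ltb4r1* and *Lpcat1* had lower values in G3SEKO Icos+ cells in both experiments, with log2 ratios of -5.73 and -1.17 and of -5.44 and -1.23. In Zbtb16+ cells the ratios were -5.72 and -3.11 for *Prxl2b* and 3.78 and 2.73 for *Ltb4r2*, each under 6 CPM in every such sum, and edgeR called none of these genotype differences (adjusted p = 0.9997 and 0.9999 in the 2 gates). In WT cells, *Mgst3* had 34.1 and 39.6 CPM in Zbtb16+ and 2.53 and 8.69 CPM in ST2+ cells, and *Pafah2* 16.7 and 11.4 CPM against 62.3 and 43.6 CPM, and neither was called. *Ptger3*, *Ptafr* and *Ptgr1* had at most 3.05 CPM in WT ST2+ cells. *Lta4h*, whose enzyme makes leukotriene B4, was at similar values in all 6 WT sums, from 86.9 to 113 CPM. Among the cyclooxygenase genes, *Ptgs1* had between 0 and 2.99 CPM in those sums. *Lta4h*, *Ptgs1* and the genes of the ST2+ comparison were picked from the list after their values were seen.

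The genes whose sums were most like those of *Alox5* over 15 sums of 4 gates, 2 genotypes and 2 experiments were *Dennd6b* (Pearson r of log2(CPM + 1) 0.94), *Rpl19* (0.91) and *Rpl19-ps1* (0.89), among 9731 genes with a mean of at least 10 CPM. Those most like *Ptgir* were *Mctp1* (0.95), *Axin2* (0.93) and *Gm4956* (0.92), and those most like *Lpcat2* were *Cd200r1* (0.98), *Ptpn13* (0.95) and *Stxbp6* (0.95). *Rpl19* and *Rpl19-ps1* are near-identical copies that can share reads. *Lpcat2* correlated with *Hpgds* at 0.92, *Cysltr1* and *Ptgir* at 0.81, *Ptger4* at 0.65 and *Alox5* at 0.60. The sums share libraries and hashtag pools, and the correlations are descriptions.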

How the data were processed

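The authors deposited, for each of 2 experiments, a table of raw read counts per gene and cell of the mRNA library and a table of hashtag counts per cell, without collapsing molecular identifiers. Per the methods of the study, reads were trimmed with Cutadapt and aligned with Bowtie2 to GRCm38 transcripts, and cells were assigned by hashtag. Seurat 4 is named in the submitters' notes.

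Cells were kept above the read limit that the study's methods give for each experiment, at no more than 10% mitochondrial reads, with a hashtag of a genotype and with *Id2* at the gate value. This left 724 of 1033 barcodes in experiment 1 (681 WT, 43 G3SEKO) and 6289 of 7630 in experiment 2 (5130 WT, 1159 G3SEKO). Hashtag doublets were removed (1 and 99 barcodes doublet or without a call after the other limits), and no other doublet caller was run. The kept cells of the experiments shared 5 barcode numbers. Counts were summed per gate, genotype and experiment, and sums of under 5 cells were left out of tests.

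Genes were tested over all rows of both tables with edgeR 4.0.16 (quasi-likelihood, TMM, filterByExpr, Benjamini-Hochberg, threshold 0.05, R 4.3.3) with the experiment as block, because both genotypes of an experiment were combined in 1 library. All tests are two-sided. P-values measure the spread between 2 experiments whose independence at the level of animals the labels do not give. DESeq2 1.42.0, RLE size factors, no filter, no block, other gate values, genotypes from the hashtag counts, thinned cells and each experiment alone were alternatives. Genotypes from the hashtag counts returned barcodes of experiment 2 that were deposited as doublets. A test of both experiments was planned for ST2+ cells, but experiment 1 holds 2 such G3SEKO cells, so log2 ratios of experiment 2 after 2 reads were added are given. On simulated counts the edgeR test recovered 9% of 4-fold and 40% of 16-fold changes among 16571 genes for the genotype comparison in Icos+ cells, 41% and 75% among 16604 genes in Zbtb16+ cells, 50% and 81% among 20086 genes for WT ST2+ against Zbtb16+ cells and 52% and 80% among 19750 genes for the *Il18r1* comparison. The changed genes, 100 per fold, were drawn from those with a mean above 100 reads per sum. These shares therefore do not cover members with few reads.

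Exact binomial intervals (95%) and floors of 3 counts cover counting error only. Python 3.11.15, NumPy 2.4.6, pandas 2.3.3 and SciPy 1.17.1 were used. The members and gene lists were chosen with earlier results of these data known. Genes named were the members, *Gata3*, the 10 genes of the pathway list with the largest differences among those called or past 2-fold in both experiments, and the 3 genes most like each of *Alox5*, *Ptgir* and *Lpcat2*; others are marked as chosen after their values were seen. *Ccr6*, *Cxcr5* and *Il23r* are part of a longer list whose full sum is not reported here, nor are the sums of the lists without a value in the report.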

Additional observations from a re-analysis of the deposited data

How the results depend on the processing

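The replicate block is the experiment. Without it 248 genes were called between WT ST2+ and Zbtb16+ cells in place of 454, and 1 between ST2+ and Icos+ cells in place of 3, and *Lpcat2* was the member whose call was lost. DESeq2 called 2677, 2119 and 835 genes between WT ST2+ and Zbtb16+, Icos+ and Zbtb16+, and ST2+ and Icos+ cells, 329 by *Il18r1*, 57 by genotype in Icos+ and 48 in Zbtb16+ cells. Thinned cells gave 1025, 569, 32, 85, 56 and 4 in the same order. Without a filter on low counts 38 genes were called between Icos+ and Zbtb16+ cells, 2 by *Il18r1* and 32 by genotype in Icos+ cells. Gates at 0.5 gave 269 between ST2+ and Zbtb16+ and 19 between Icos+ and Zbtb16+ cells, gates at 1.5 gave 1 between ST2+ and Icos+ cells, and no *Id2* limit gave 17 between Icos+ and Zbtb16+ cells. The Il18r1+ part of the Icos+ gate, chosen after seeing the data, gave 221, 1 and 0 for the first 3 contrasts. The cause of these shifts was not tested.

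Log2 genotype differences in Zbtb16+ cells changed direction as follows. *Alox5* was 0.060 in the Icos+ part and 0.29 as the mean of the CPM of each cell, and -1.35 to 0.68 in 1 experiment alone. *Alox5ap* ranged from -1.28 to 1.94 in 1 experiment alone. *Cysltr1* was 0.10 in the Icos+ part and -1.57 to 0.17 alone. *Ptgir* was -0.31 without the block, -0.010 in the Icos- part, -0.12 as the mean over cells and -1.30 to 1.59 alone. *Ptger4* was 0.037 without the *Id2* limit, 0.089 with gates at 1.5, 0.20 in the Icos- part and -1.07 to 0.70 alone. Between WT Icos+ and Zbtb16+ cells *Alox5* was -0.40 with gates at 0.5, -3.02 with the Il18r1+ part and -0.31 to 0.42 alone. *Ptger4* between ST2+ and Icos+ cells was -0.028 with gates at 1.5. By *Il18r1*, *Alox5ap* was 1.11 with gates at 0.5 and -3.70 to 1.04 alone, and *Cysltr1* was -0.12 with gates at 0.5, -0.047 as the mean over cells and -0.21 to 0.36 alone. The ST2+ ratio of *Tbxas1*, 3.43 as reported, was -6.22 with gates at 1.5, -3.77 on thinned cells and -2.13 in the Il18r1+ part. Over 9 alternatives each, the other ST2+ ratios ran from -2.30 to -0.38 for *Alox5*, -1.77 to -0.88 for *Cysltr1*, -7.85 to -1.12 for *Hpgds*, -4.43 to -2.25 for *Lpcat2*, -2.46 to -0.091 for *Ptger4*, -3.10 to -1.78 for *Ptgir* and 3.38 to 6.51 for *Alox5ap*, and 4 to 6 members were lower by 2-fold. One experiment alone leaves no residual degrees of freedom, so these are values with no test. *Alox5* was read in 37.8% of WT ST2+ cells of experiment 2 as deposited in place of 29.4%.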

Other observations

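Triple-negative cells were 75 and 778 in WT and 14 and 389 in G3SEKO. In WT they had 83.0 and 181 CPM of *Alox5*, 57.7 and 162 CPM of *Lpcat2* and 61.6 and 130 CPM of *Ptgir*. The G3SEKO cells had 63.1 and 13.9 CPM of *Alox5*, 1.30 and 17.3 CPM of *Lpcat2* and 47.1 and 5.11 CPM of *Ptgir*. *Lpcat2* was thus lower in G3SEKO cells in both experiments, and *Alox5* and *Ptgir* differed far more in experiment 2 than in experiment 1, where 1 of the 14 cells gave 77.5% of the *Alox5* reads. In the 14 cells *Alox5ap* had 234 CPM, 88.2% of it from 1 cell, and monocyte, macrophage and neutrophil markers summed to 36960 CPM, against 39.3 CPM in WT. NK cell and ILC1 markers summed to 791 and 46.3 CPM in WT and 1180 and 304.2 CPM in G3SEKO triple-negative cells, and *Ccr6*, *Cxcr5* and *Il23r* to 19.7 and 149 CPM against 98.5 and 480.5 CPM, higher in G3SEKO in both experiments. The part of such cells in the differences was not tested. None of these values was tested.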
